A study of Mus musculus with 4 samples.

Results

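The MYC, MAX and MXD network was followed through 9 genes: the MYC family members Myc and Mycn, their shared partner Max, and the antagonists Mxd1, Mxd3, Mxd4, Mxi1, Mnt and Mga. Each is a gene symbol that the platform annotation gives alone to at least 1 probe set. The 9 genes had 24 probe sets, among 18194 genes named on the array. Each gene was represented by its main probe set, the one with the highest mean log2 value. A filter on low values kept 12680 genes, and the main probe sets of all 9 members were among them.

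The study used 4 expression arrays of cells with the surface phenotype Lin-Sca-1+c-Kit+, called LSK, the bone marrow fraction that holds haematopoietic stem cells and early multipotent progenitors. On 2 arrays the fetal liver cells that had reconstituted the mice were necdin null, and on the other 2 they were wild type. The strain given for every sample is C57BL/6, all mice had received a sublethal dose of 6.5 Gy, and no unirradiated cells were analysed here, so no value below measures the effect of irradiation. The age of the mice, the time after irradiation, the cells the hosts still had, and whether an array holds 1 animal or a pool are not given in the sources used here. A p-value therefore reflects the variation among these arrays alone, part of which may be technical. Necdin, encoded by Ndn, is a growth-suppressing protein of the MAGE family.

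MYC and MYCN are transcription factors that bind DNA only as a pair with MAX, mostly at the E-box CACGTG, and raise transcription of genes for ribosome assembly, metabolism and cell cycle entry. MXD proteins, MXI1 and MNT pair with the same MAX and recruit SIN3 corepressors to the same sites, and MGA pairs with MAX in a Polycomb-type repressor complex. In blood formation, MYC activity is tied to the exit of stem cells from dormancy, and MXD factors are known from differentiating cells.

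The E-box is shown where RefSeq promoters of the network hold it. A promoter here is 250 bases before and 50 after a start site (build GRCm38.p6), and the motif searched was CACGTG, which reads the same on both strands. Promoters were found for 8 of the 9 members, and 3 of these 8 genes (37.5%) held the motif. The table as a whole held it in 2349 of 32851 promoters (7.15%), and 11.5% of the tested genes with a promoter held it in at least 1. The 3 members are Max, Mxd4 and Mnt, with the motif centred 0, -216 and -120 bases from the start site. Of 48 textbook MYC-induced genes, 40 had a promoter, and 13 of the 40 (32.5%) held the motif. Among those named further on, Pus7 held it. Each window is 30 bases on the strand of the gene, with the motif in capitals.
Max (chr12:76962234-76962263, minus strand): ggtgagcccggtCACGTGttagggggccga
Mxd4 (chr5:34187912-34187941, minus strand): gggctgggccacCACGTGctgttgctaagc
Mnt (chr11:74830789-74830818, plus strand): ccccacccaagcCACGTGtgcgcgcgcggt
Pus7 (chr5:23783666-23783695, minus strand): ggcgcagcgccgCACGTGtgcgagcccggc
A match describes the letters only. Factor binding was not measured. Among tested genes, the 1186 with the motif in a promoter differed between genotypes by a median of -0.03 on the log2 scale, and so did the 9101 whose promoters lacked it.

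The arrays were checked first. Ndn was low where the labels say necdin null. Its main probe set gave 55.4 and 105 on the necdin null arrays, compared with 253 and 255 on wild type arrays. Another, 1435382_at, gave 2.73 and 12.1 on the necdin null arrays, compared with 559 and 391.8 on wild type arrays. The stem and progenitor genes Kit, Cd34, Flt3, Meis1 and Hlf had signals between 2637 and 15252 on the 4 arrays, and Slamf1, a marker of long-term stem cells, had 338 and 233 on the necdin null arrays, compared with 397 and 74.4 on wild type arrays. Ly6a, which encodes Sca-1, was not on a probe set with 1 symbol and was not analysed here. The 4 T and NK lineage markers with a named probe set were all below the filter, while the summed signal of 7 neutrophil markers was 48941 and 128544 in necdin null and 30682 and 84884 in wild type cells. All 7 neutrophil and all 4 promyelocyte markers were higher in necdin null cells, and 0 were called. The 6 B lineage markers tested summed to 1202 and 1422 in necdin null and 1190 and 2230 in wild type cells. For 4 megakaryocyte markers the sums were 5454 and 6410 against 8140 and 5357. The Gapdh 3' to 5' ratio was 9.96 or higher on every array, so none is taken as free of 3' bias. Necdin null replicate 2 had the highest ratio, 15.8, while necdin null replicate 1 had 10.96. The wild type arrays had 9.96 and 11.7. The brightest 1% of probe sets held 37.4% of the signal in necdin null replicate 2 and 28.9% in necdin null replicate 1. For wild type this share was 29.4% and 30.6%. For the members and the lists of textbook MYC targets, results that rest on necdin null replicate 2 are given without it as well. Other single genes are given on all 4 arrays only.

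No member of the network passed the test between genotypes. Of the 9 main probe sets, 8 lay lower and 1 higher in necdin null cells, but 0 passed the limma test over all genes (adjusted p 0.999 for each, lowest unadjusted p 0.13). None of the 9 had an unadjusted p under 0.05, beside 3.02% of all genes. Over all genes, 0 of 12680 (0%) passed. Ndn itself was not called, at a log2 difference of -1.68 on its main probe set (limma adjusted p 0.999). Its probe set 1435382_at, at -5.53, had a limma adjusted p of 0.41 over all probe sets. A gene that did not pass may therefore still differ. The groups overlapped for 8 of the 9; Mxd4 alone was lower without overlap, where 17.7% of all genes were lower without overlap and 12.8% higher. The median log2 difference of the 9 was -0.18, against -0.03 over all genes tested, of which 54.1% lay below 0. It was -0.062 without necdin null replicate 2 and -0.060 with the mean of each gene's probe sets above the filter.

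Myc is the family member best known from adult stem and progenitor cells. Its only named probe set gave 4685 and 5985 on the necdin null arrays, compared with 5688 and 5896 on wild type arrays. The wild type signals lay between the necdin null ones. The means were 5335 ± 919 in necdin null and 5792 ± 147 in wild type cells (SD, n = 2 each). The log2 difference was -0.13 (standard error 0.20), and its 95% interval reached from -0.58 to 0.32. Changes of Myc beyond those ends are outside this unadjusted interval. Those within it, no change among them, are compatible with the values of the 4 arrays. The interval is no limit of detection for the test over all genes. Without necdin null replicate 1 the difference was 0.05.

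Mycn, which can stand in for Myc and is used together with it by blood stem cells, had 2116 and 1538 on the necdin null arrays, compared with 3377 and 1838 on wild type arrays. Wild type replicate 1 was the high array, and the other 3 lay within a narrower range. The log2 difference of -0.47 (standard error 0.30, 95% interval -1.14 to 0.21) was -0.03 without wild type replicate 1. The second Mycn probe set above the filter, 1425922_a_at, had 44.1 and 71.7 on the necdin null arrays, compared with 12.9 and 70.9 on wild type arrays. It pointed the other way, at 0.77, from much lower signals.

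Max, the obligate partner of both sides, was measured by 1 probe set with weak signals. It gave 107 and 15.6 on the necdin null arrays, compared with 133 and 94.5 on wild type arrays. The low value on necdin null replicate 2 sets the log2 difference of -1.32 (standard error 0.80, 95% interval -3.14 to 0.50), which was -0.06 without that array. The interval is the widest of the 9 genes. That array also had the highest Gapdh 3' to 5' ratio and the highest neutrophil marker sum. The part of either in the low Max signal was not tested.

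**Figure D1:**
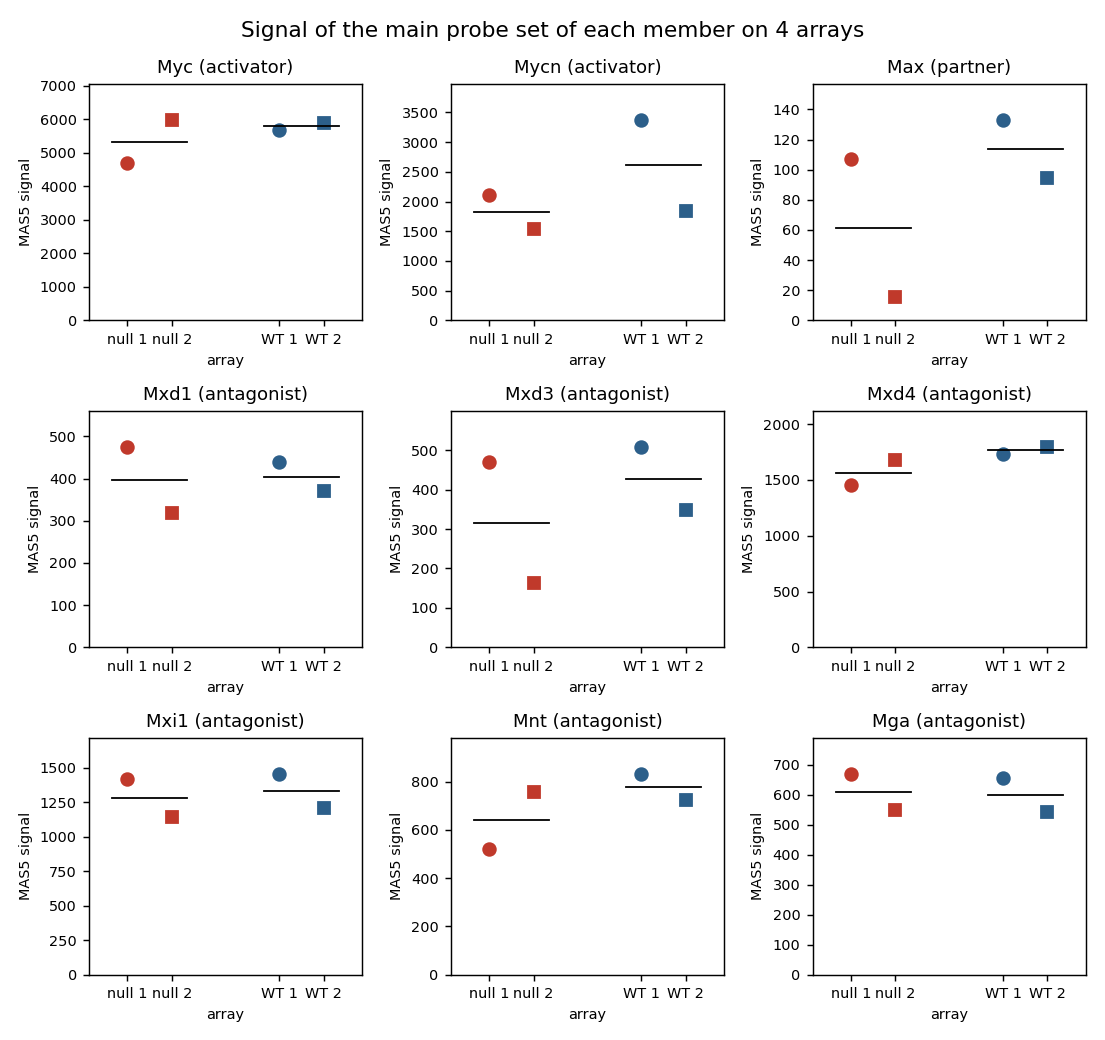
MAS5 signal (linear, vertical axis from 0) of the main probe set of each member on necdin null arrays 1 and 2 (red) and wild type arrays 1 and 2 (blue), with black lines at the group means. For Mycn, Max, Mxd1, Mxd3, Mxi1 and Mga, the arrays numbered 1 (circles) lie above those numbered 2 (squares) in both genotypes.

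Among the antagonists, 5 of 6 were lower in necdin null cells on the main probe set. Mxd3, the MXD member known from proliferating cells in S phase, had the lowest difference. Its main probe set gave 469 and 163 on the necdin null arrays, compared with 508 and 348 on wild type arrays. Necdin null replicate 2 was the low array, and necdin null replicate 1 lay between the wild type ones. The log2 difference was -0.59 (standard error 0.48). Without necdin null replicate 2 it was 0.16.

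Mxd3 was 1 of 2 genes, with Mnt, for which more than 1 probe set passed the filter and each was lower in necdin null cells. Its second probe set, 1448878_at, gave 273 and 117 on the necdin null arrays, compared with 367 and 232 on wild type arrays. The 4 arrays thus ranked as on the main probe set. The third, 1422970_at, gave 15.6 and 11.5 on the necdin null arrays, compared with 102 and 51.8 on wild type arrays. Its groups did not overlap, and its log2 difference of -2.16 (standard error 0.69) had the lowest unadjusted p of the network's 20 probe sets above the filter, 0.015. It did not pass over all 27061 probe sets (limma adjusted p = 0.996), of which 3.48% had an unadjusted p under 0.05 and 0 passed. Its necdin null signals lie below the filter's signal of 30.3, so this difference sets a wild type signal against values near the floor of the array.

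Mxd1, the MXD factor induced as myeloid cells mature, had 475 and 317 on the necdin null arrays, compared with 438.5 and 370.2 on wild type arrays. The necdin null arrays lay on both sides of the wild type arrays. The log2 difference was -0.05 (standard error 0.32). The second Mxd1 probe set, 1455104_at, had 52.6 and 86.0 on the necdin null arrays, compared with 71.8 and 3.59 on wild type arrays, and its difference of 1.59 came from the single low value on wild type replicate 2.

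Mxd4 was the member whose groups were apart. It gave 1457 and 1676 on the necdin null arrays, compared with 1735 and 1796 on wild type arrays. The gap between the nearest arrays of the groups was small beside the spread within necdin null. The means were 1566 ± 155 in necdin null and 1766 ± 43.4 in wild type cells (SD, n = 2 each), a log2 difference of -0.18 (standard error 0.19), which was -0.07 without necdin null replicate 1 and -0.28 without necdin null replicate 2. Of its 4 probe sets above the filter, 2 were lower and 2 higher, between -0.25 and 0.12.

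Mxi1, the MXD2 protein, had 1417 and 1146 on the necdin null arrays, compared with 1455 and 1208 on wild type arrays. The groups interleave, and the log2 difference of -0.06 had a 95% interval from -0.55 to 0.44. Its second probe set, with signals of at most 83.6, stood at 0.28.

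Mnt, the broadly expressed antagonist that is present in cycling and resting cells alike, had 522 and 758 on the necdin null arrays, compared with 831 and 723 on wild type arrays. Necdin null replicate 1 was the low array, and necdin null replicate 2 lay between the wild type arrays. The log2 difference of -0.30 (standard error 0.27) was -0.03 without necdin null replicate 1. A second, weaker probe set gave 34.1 and 42.7 on the necdin null arrays, compared with 51.5 and 44.2 on wild type arrays, also -0.30, with groups apart.

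Mga, the largest protein of the network, had 669 and 549 on the necdin null arrays, compared with 655 and 543 on wild type arrays. Its log2 difference was 0.02, with a 95% interval from -0.56 to 0.61. A second probe set, 1431232_a_at, had 587 and 239 on the necdin null arrays, compared with 475 and 240 on wild type arrays, a difference of 0.15. On these probe sets the arrays differed more by number within each genotype than between genotypes. The third above the filter, 1422646_at, had 41.4 and 20.2 on the necdin null arrays, compared with 29.7 and 48.9 on wild type arrays, a difference of -0.35 with overlap by number.

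Over all probe sets of the network, 20 of 24 passed the filter, and the other 4 had signals of at most 81.3. Of the 20, 13 were lower and 7 higher in necdin null cells. Groups were apart in 3, all lower, where 16% of all probe sets above the filter were lower without overlap and 15.4% higher. For 5 of the 7 genes with more than 1 probe set above the filter, the probe sets differed in direction.

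**Figure D2:**
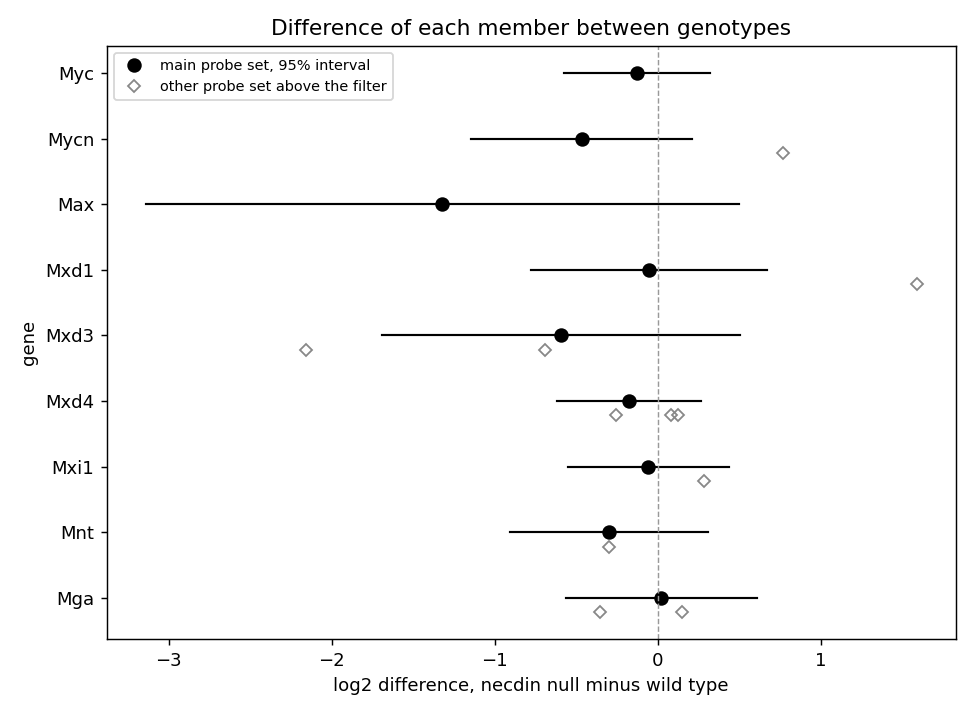
Log2 difference, necdin null minus wild type (horizontal axis), for each gene. Filled circles are main probe sets with their 95% limma interval, and open diamonds are the other probe sets above the filter. All 9 intervals include 0, and only the Mxd3 and Mnt probe sets all lie below 0 among genes with several.

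For most members the arrays fell in the order of their replicate number in both genotypes. Mycn, Max, Mxd1, Mxd3, Mxi1 and Mga, 6 of 9 members, were higher on both arrays numbered 1 than on both arrays numbered 2. Over all genes tested this held for 21.1%. Myc alone was higher on both arrays numbered 2, as were 19.5% of all genes. What the numbers stand for is not given in the labels.

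Within necdin null, array 2 minus array 1 on the log2 scale was -0.46 for Mycn, -1.50 for Mxd3 and -0.58 for Mxd1. Within wild type the same step was -0.88, -0.54 and -0.24. The step within a genotype was larger than the difference between genotypes for Mxd1, Mxi1 and Mga in both genotypes. Neutrophil marker sums were also higher on the arrays numbered 2 in both genotypes, as given above, and the sum of 6 monocyte and macrophage markers was 10382 and 17922 on the necdin null arrays, compared with 8041 and 16197 on wild type arrays. Among the 6 stem and progenitor markers tested, Kit, Hlf and Slamf1 were higher on the arrays numbered 1 in both genotypes, Flt3 was higher on those numbered 2, and Cd34 and Meis1 overlapped. Kit had 6049 and 3744 on the necdin null arrays, compared with 6617 and 3976 on wild type arrays, and Hlf had 4997 and 2674 against 6110 and 2637. The part of cell composition in the network's values was not tested. In sorted populations measured in bulk, fewer cells of a type and less RNA per cell cannot be told apart.

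The balance of activators to antagonists was taken per array as the mean log2 value of Myc and Mycn minus that of the 6 antagonists. Its height also reflects how bright the probe sets are, so only its differences between arrays are read. It was 2.09 and 2.36 on the necdin null arrays, compared with 2.41 and 2.24 on wild type arrays. The groups overlapped, with means of 2.22 ± 0.19 in necdin null and 2.33 ± 0.12 in wild type cells (SD, n = 2 each). The balance differed by -0.10 on the log2 scale, less than the spread between arrays of a group.

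Both sides of the balance had lower means in necdin null cells, as a description without a test. The mean log2 value of the MYC family was 11.62 and 11.57 on the necdin null arrays, compared with 12.10 and 11.69 on wild type arrays, apart by -0.30. That difference was -0.09 without wild type replicate 1, -0.50 without wild type replicate 2 and 0.01 with the mean of each gene's probe sets above the filter. The antagonists had 9.53 and 9.21 on the necdin null arrays, compared with 9.69 and 9.44 on wild type arrays, with overlap and a difference of -0.19. For the antagonists it was -0.03 without necdin null replicate 2 and -0.07 without wild type replicate 1. Leaving out necdin null replicate 1 gave -0.35, and leaving out wild type replicate 2 gave -0.31. Between the arrays numbered 1 the balance differed by -0.32, and between those numbered 2 by 0.11.

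The balance depended on which activator was counted. With Myc alone over the antagonists it was 2.66 and 3.34 on the necdin null arrays, compared with 2.79 and 3.08 on wild type arrays, a difference of 0.06. With Mycn alone it was 1.52 and 1.38 on the necdin null arrays, compared with 2.03 and 1.40 on wild type arrays, a difference of -0.27 that comes from wild type replicate 1. Leaving out any single antagonist kept the difference between -0.18 (without Mxd3) and -0.06 (without Mga). Without Mxd3 the groups no longer overlapped, at 1.96 and 1.99 on the necdin null arrays, compared with 2.27 and 2.05 on wild type arrays; they overlapped without any other single antagonist. Single ratios of Myc to an antagonist differed between genotypes by -0.15 (Mga) to 0.46 (Mxd3) on the log2 scale. The groups overlapped for all 6.

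**Figure D3:**
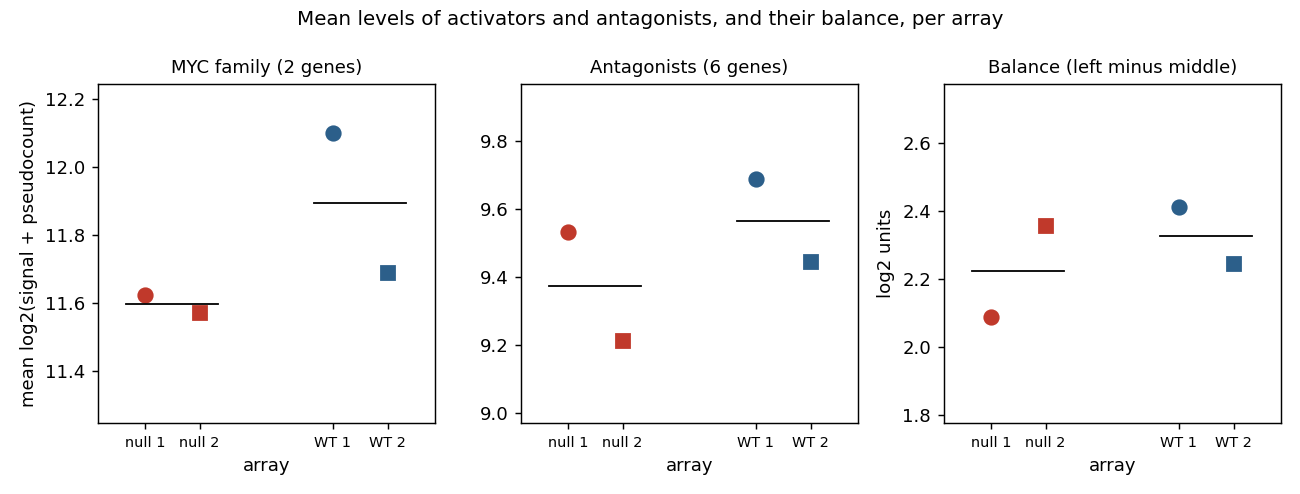
Mean log2(signal + pseudocount) of the MYC family and of the antagonists, and the difference of these means (the balance, log2 units), on the 4 arrays; black lines are group means and each panel spans 1 log2 unit. The balance of the necdin null arrays (red, 2.09 and 2.36) overlaps that of the wild type arrays (blue, 2.41 and 2.24).

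Mycl and the MLX branch, whose factors share MNT and some MXD proteins with MAX, did not pass the test either. Mlx, the MAX-like partner, had 263 and 174 on the necdin null arrays, compared with 303 and 336 on wild type arrays (log2 difference -0.57, standard error 0.36), with 1 of its 2 probe sets above the filter lower. Mlxip, the glucose-responsive factor MondoA, had 567 and 634 on the necdin null arrays, compared with 744 and 752 on wild type arrays (-0.32, standard error 0.24). Both had groups apart, where 17.7% of all genes were lower without overlap. Neither passed over all genes (limma adjusted p = 0.999). The main Mycl probe set gave 59.0 and 46.3 on the necdin null arrays, compared with 5.75 and 147 on wild type arrays, a spread too wide to rank the genotypes. A second Mycl probe set above the filter, 1422088_at, was higher in necdin null cells, at 0.80 (standard error 0.69). It had 42.7 and 52.8 on the necdin null arrays, compared with 16.8 and 38.3 on wild type arrays. Its groups were apart, where 15.4% of all probe sets above the filter were higher without overlap. Mlxipl was below the filter.

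Genes of proteins that the network recruits were examined next. Of 13 MYC cofactors tested, 8 were lower and 5 higher in necdin null cells; 0 were called, and their median was -0.03 on the log2 scale. Crebbp, the acetyltransferase CBP, had 1313 and 1696 on the necdin null arrays, compared with 2307 and 2216 on wild type arrays (-0.60, standard error 0.20). Ep400, the ATPase of the NuA4/TIP60 complex that MYC recruits, had 2028 and 2213 on the necdin null arrays, compared with 2937 and 3130 on wild type arrays (-0.52, standard error 0.18). Both stood apart between genotypes on all arrays and had the same direction on all their probe sets above the filter, 3 for Crebbp and 5 for Ep400. Among the 13 cofactors, groups were apart in 4 as lower (30.8%) and in 2 as higher (15.4%), beside 17.7% and 12.8% of all genes. The other 2 cofactors of smallest p, Ccnt1 (0.33), the cyclin of P-TEFb, and Trrap (-0.25), the scaffold of the acetyltransferase complexes, had standard errors of 0.21 and 0.24. Of the 2 Ccnt1 probe sets above the filter, 1 was higher. Limma adjusted p was 0.999 for each.

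Of 8 SIN3 corepressor genes tested, through which the MXD proteins and MNT repress, 4 had a positive and 4 a negative difference, 0 were called, and the median was -0.01. Suds3, a subunit that holds the SIN3 and HDAC1 complex together, had 2305 and 1985 on the necdin null arrays, compared with 3969 and 3701 on wild type arrays. The groups were far apart relative to their spread, and both its probe sets above the filter were lower. Its log2 difference of -0.84 (standard error 0.19) had an unadjusted p of 0.0016 and did not pass over all genes (limma adjusted p = 0.999). Of the 8 genes, groups were apart in 2 as lower (25%) and in 0 as higher, beside 17.7% and 12.8% of all genes. Sin3b was at -0.18, Rbbp4 at 0.20 and Rbbp7 at 0.19, each with a limma adjusted p of 0.999. The probe sets of Rbbp4 and Sin3b did not all point 1 way. Rbbp4 and Rbbp7 were highest on necdin null replicate 2, at 40073 and 45601. For both genes, necdin null replicate 1 lay below both wild type arrays.

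Among genes that control MYC protein turnover, 12 of 17 were lower and 5 higher, 0 were called, and the median was -0.23. The list mixes genes that promote MYC degradation with genes that stabilise MYC, so these figures give no direction for turnover. Groups were apart in 6 of the 17 as lower (35.3%) and in 2 as higher (11.8%), beside 17.7% and 12.8% of all genes. Fbxw7, the ubiquitin ligase that marks phosphorylated MYC for degradation, had 680 and 872 on the necdin null arrays, compared with 992 and 917 on wild type arrays (-0.31), with 1 of 2 probe sets above the filter lower. Aurka, a kinase that shields MYCN from that ligase, had 1012 and 935 on the necdin null arrays, compared with 1280 and 1094 on wild type arrays (-0.28). Usp37, a deubiquitinase of MYC, was at -0.46 and Pim2, a kinase reported to stabilise MYC, at 0.43. Of the 2 Usp37 probe sets above the filter, 1 was lower. None of the 17 had an unadjusted p under 0.05.

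Among textbook MYC-induced genes, 27 of 43 were higher and 16 lower, 0 were called, and the median was 0.07 on the log2 scale. Groups were apart in 11 as higher (25.6%) and in 4 as lower (9.30%), beside 12.8% and 17.7% of all genes. Dkc1, the pseudouridine synthase dyskerin, was at 0.51 (standard error 0.20), with 2 of 3 probe sets above the filter higher. Its main probe set had 5077 and 5082 on the necdin null arrays, compared with 3155 and 4034 on wild type arrays. Polr1b, a core subunit of RNA polymerase I, went the other way, at 2477 and 2536 on the necdin null arrays, compared with 3241 and 3935 on wild type arrays (-0.51, standard error 0.19). Pus7, a pseudouridine synthase with the E-box shown above, had 1091 and 1088 on the necdin null arrays, compared with 680 and 923 on wild type arrays (0.46). Tfrc, the transferrin receptor, had 633 and 1133 on the necdin null arrays, compared with 462 and 637 on wild type arrays (0.64), with overlap and 1 of 3 probe sets above the filter higher. Limma adjusted p was 0.999 for all of them.

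The sign of the MYC-induced median depended on the scaling and on 1 array. Set against each gene's mean over the 4 arrays, its median was -0.04 and 0.09 on the necdin null arrays, compared with -0.03 and -0.05 on wild type arrays, so the groups overlapped. Without necdin null replicate 2 the median difference was -0.03, beside -0.01 over all genes. With median centring it was -0.01, beside -0.11 over all genes, so under that scaling it stayed above that of all genes.

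Among textbook MYC-repressed genes, 7 of 11 were higher and 4 lower, 0 were called, and the median was 0.05. Groups were apart in 3 as lower (27.3%) and in 0 as higher (0%), beside 17.7% and 12.8% of all genes. Cdkn2c, the CDK4/6 inhibitor p18, had 1667 and 1121 on the necdin null arrays, compared with 2191 and 1517 on wild type arrays (-0.41). Cebpa, a factor required for granulocyte progenitors, had 328 and 213 on the necdin null arrays, compared with 352.5 and 387 on wild type arrays (-0.48). Itgb1, the integrin beta 1 chain, was at 0.29 and Ndrg2 at -0.34. The median was -0.13 when necdin null replicate 2 was left out, -0.05 for necdin null replicate 1 and -0.15 for wild type replicate 1.

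**Figure D4:**
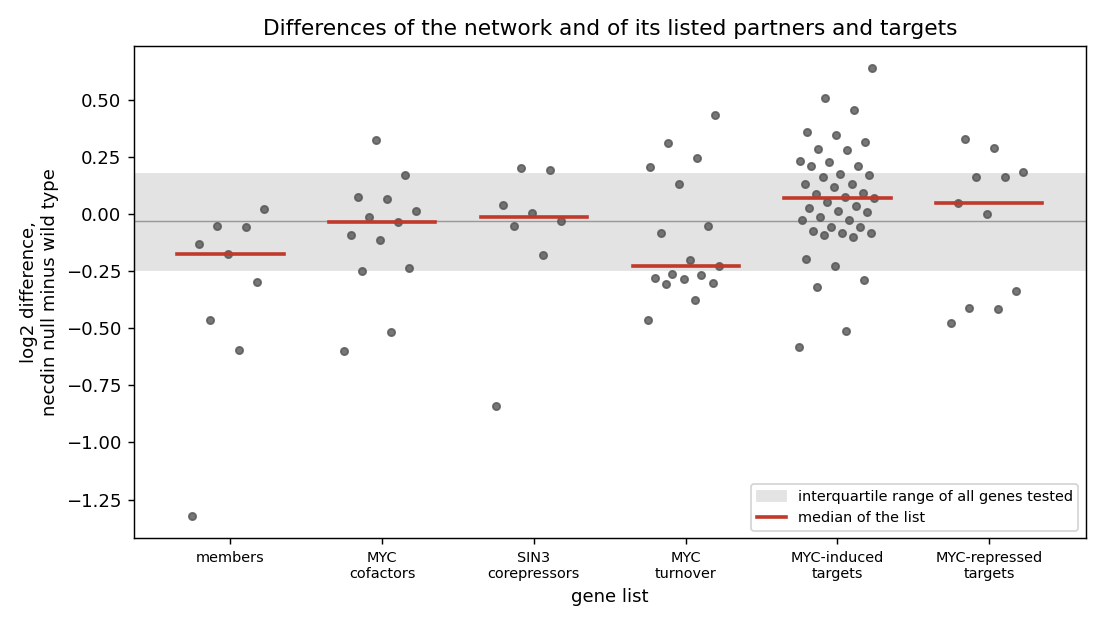
Log2 difference, necdin null minus wild type (vertical axis), of every tested gene in the network and in the 5 lists of its partners and targets (points), with the list median (red line) and the interquartile range of all 12680 genes (grey band, -0.24 to 0.17). The list medians run from -0.23 for MYC turnover to 0.07 for MYC-induced targets; the band describes single genes and is no measure for a median.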

How the data were processed

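The deposited values are intensity on a linear scale, made by the authors with MAS5 per the submitters' processing notes. Version and genome build are not given in the sources used here. On every array, the mean after trimming 2% of probe sets at each end is 500.004. Of 45101 probe sets, 34958 had 1 gene symbol in the platform annotation, and only these were named. Promoter sequences are from RefSeq, GRCm38.p6. Values were analysed as log2(signal + 3.80), the 10th percentile of all values, so log2 differences understate changes of low genes. Genes at or above the 40th percentile (log2 value 5.09) were kept. Genotypes were compared with limma 3.58.1 in R 4.3.3 (intensity trend, two-sided, Benjamini-Hochberg, threshold 0.05), on code tested on simulated data. With 2 arrays a group, the smallest two-sided p of an exact permutation test is 0.333. The number of arrays limits the precision. Members and lists were chosen with earlier results of these data known, so lists are described by counts and medians. Named genes are all members, Ndn, Mycl and the MLX branch, and up to 4 genes of smallest p per list. Alternatives changed the pseudocount, filter, normalization, variance model, probe sets, the replicate number as a block, the members of the balance, or left out an array.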

Additional observations from a re-analysis of the deposited data

How the results depend on the processing

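No member passed the threshold under any of the alternatives run; the lowest adjusted p was 0.26, for Max without necdin null replicate 1. The count of called genes was 0 in the main comparison, 3 with the replicate block, 0 with the block and quantile normalization, and 0 to 4 leaving out 1 array. The numbers were not taken as pairing in the main comparison. Deviations from the group means of same-numbered arrays correlated at 0.11 across genes. That low value does not show that the numbers carry no shared effect. Of all genes, 21.1% were higher on both arrays numbered 1 and 19.5% on both numbered 2. The block left every difference as it was and called no member. Max, Mxd4 and Mnt stayed lower throughout. Leaving out 1 array, differences ranged from -0.31 to 0.047 for Myc, -0.90 to -0.03 for Mycn, -2.58 to -0.06 for Max, -0.34 to 0.23 for Mxd1, -1.34 to 0.16 for Mxd3, -0.28 to -0.07 for Mxd4, -0.57 to -0.03 for Mnt, -0.21 to 0.10 for Mxi1 and -0.12 to 0.16 for Mga. With the mean of probe sets above the filter, Mycn was at 0.15, Mxd1 at 0.77, Mxi1 at 0.11 and Mga at -0.060. Quantile normalization, with or without the block, gave 0.0010 for Mxd1 and 0.010 for Mxi1, and median centring gave -0.058 for Mga; under it the median of all genes was -0.11 in place of -0.03. The balance difference was 0.12 with the mean of probe sets, 0.064 with Myc alone, -0.27 with Mycn alone, -1.13 with Max in place of the MYC family, and -0.24 to 0.03 leaving out 1 array. Without _s_at, _x_at and _a_at probe sets Myc had no probe set left, and at the 60th percentile Max fell below the filter. The median of MYC-induced targets was -0.011 with median centring, -0.020 without those probe sets and -0.031 to 0.11 leaving out 1 array; that of MYC-repressed targets was -0.15 to 0.19 leaving out 1 array. Causes of these shifts were not tested.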
